A study of Mus musculus with 8 samples.

Results

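The genes described here are the segments of the T cell receptor alpha and beta chains, taken as every row of the deposited gene table whose symbol starts with Trav, Traj, Trac, Trbv, Trbj, Trbd or Trbc. This rule found 244 of 57180 rows, of which 130 were Trav, 60 Traj, 35 Trbv, 14 Trbj and 2 Trbd segments, with the constant genes Trac, Trbc1 and Trbc2. The table comes from RNA sequencing of regulatory T (Treg) cells, which are CD4 T cells with a suppressive role, taken by cell sorting from several mice, in a study on copper and Treg suppression. The 8 libraries fall into chimera WT (n = 5) and chimera KO (n = 3), called WT-labelled and KO-labelled below. The labels give neither the deleted gene, nor the strain, age, donor or host of the chimeras, nor the sorting markers. They also leave it unsaid which mouse or mice each library came from, and p-values therefore describe variation among libraries, part of which may be technical.

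Each T cell assembles its receptor genes by joining 1 variable (V) and 1 joining (J) segment, and in the beta chain also a diversity (D) segment, which are then spliced to a constant (C) gene. All copies of a chain in 1 cell therefore carry the same V segment as a rule, and a bulk library of many cells shows the mixture. The alpha locus lies on chromosome 14, with Trav from 52427928 to 53977678, Traj from 54155005 to 54218842 and Trac from 54220521 to 54224206. The beta locus lies on chromosome 6, with Trbv from 40891229 to 41558452, and Trbc1 (41538218 to 41539881) and Trbc2 (41546730 to 41548352) inside that span. Coordinates are those of GENCODE M21 on mouse GRCm38 (mm10), in which all 244 rows were found by identifier. Trbv31 (41557691 to 41558452) lies beyond Trbc2 and is the 1 member on the minus strand.

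Library totals ranged from 10544754 to 17977089 counts among WT-labelled and from 4314445 to 8477879 among KO-labelled libraries. TMM scaling factors were 1.08 to 1.15 in WT-labelled replicates 1 to 3 and 1.32 to 1.49 in the KO-labelled libraries. A larger factor lowers normalised values, so the KO-labelled ones were lowered relative to every WT-labelled library. WT-labelled replicates 4 and 5 stood apart, also in these factors, at 0.4 and 0.689, which raise their normalised values. Foxp3, the factor that defines Treg cells, was at 1.24 and 0.853 CPM (counts scaled to a common library total) in these replicates and at 3.94 to 44.7 CPM in the others. The other Treg markers were mixed. Ikzf4 was also lowest in these replicates (0.468 and 37.9 CPM), Ikzf2 in replicate 4 (32.1) and Il2ra in replicate 5 (75.3). Tnfrsf18 instead was highest in them, at 537 and 384 CPM against 6.34 to 305. Ctla4, at 370 and 286 CPM, lay above KO-labelled replicates 2 and 3, at 173 and 102. Summed NK cell markers (6 genes, Ncr1 at 0 in all libraries) reached 1600 CPM in replicate 4, against 0.25 to 128 in the other 7 libraries. In replicate 4 this sum was Nkg7 (933 CPM), Gzma (612) and Klrd1 (53.8), while Klrb1c and Prf1 were also at 0. Summed B cell markers (6 genes) reached 2087 CPM in that library, against 133 to 590 in the others. CD8 T cell markers (2 genes) reached 93.6 CPM in WT-labelled replicate 4 and 81.2 in KO-labelled replicate 3, against 0.826 to 6.35 in the other 6, nearly all of it Cd8b1, with 0 and 6 counts of Cd8a in those 2 libraries. Myeloid markers (5 genes) stood at 372 and 353 CPM in WT-labelled replicates 4 and 5, against 56.2 to 146 in the rest. These sums were mostly Cst3 (158 and 268 CPM) and Fcer1g (190 and 84.6). Lyz2 and Csf1r were at 0 in both replicates, while Lyz2 stood at 50.2 and 41.7 CPM in WT-labelled replicates 2 and 3. Red cell markers (4 genes) reached 6188 CPM in WT-labelled replicate 5, against at most 24.0 elsewhere. Summed T cell markers (6 genes) ran from 2208 to 5556 CPM for WT-labelled and from 1195 to 2350 CPM for KO-labelled libraries. The highest sum, in WT-labelled replicate 4, was mostly Cd3g (2185 CPM), Cd3d (1811), Cd2 (937) and Cd3e (549). Cd4 was instead lowest in that library, at 34.2 CPM against 129 to 220 in the other 7. Cd5 was also lowest there, at 40.2 CPM against 127 to 277. The Treg markers (6 genes) ran from 1127 to 6548 CPM for WT-labelled and from 897 to 3558 CPM for KO-labelled libraries. The Treg sums of WT-labelled replicates 4 and 5, 1127 and 1524 CPM, lay above that of KO-labelled replicate 3 (897) and below all others. The library names in the labels begin with FY for WT-labelled replicates 2 and 3 and with CY for the rest, and leaving out the FY pair gives the comparison within CY. Whether these markers come from other cells, and what part such cells have in the results below, was not tested. In bulk RNA, fewer cells of a type and less RNA per cell cannot be told apart.

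How well a segment can be counted depends on how far its sequence differs from its copies. Trav16, Trav16n and Trav16d-dv11 are copies in the repeated part of the alpha locus, and they are shown because Trav16 led one library and Trav16n led others. Below are their last 120 coding bases, 5′ to 3′, with the 4 positions at which the copies differ in capitals, from the GENCODE M21 transcripts (chromosome 14, plus strand: 53743104 to 53743705, 53351028 to 53351621 and 53047287 to 53047821).
Trav16: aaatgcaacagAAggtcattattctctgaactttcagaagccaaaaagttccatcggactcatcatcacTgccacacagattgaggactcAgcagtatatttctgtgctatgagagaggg
Trav16n: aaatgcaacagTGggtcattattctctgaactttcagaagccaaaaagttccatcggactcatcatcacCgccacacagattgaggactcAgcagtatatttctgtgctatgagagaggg
Trav16d-dv11: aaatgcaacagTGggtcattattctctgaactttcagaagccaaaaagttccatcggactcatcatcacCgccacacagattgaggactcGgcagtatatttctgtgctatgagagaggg
Trav16n differed from Trav16 at 3 of these bases. Among the 76 Trav segments with at least 10 counts in some library, 51 had another Trav row within 5 edits over their last 250 coding bases, and for 25 the nearest row was identical there. None of the 23 Trbv segments with at least 10 counts had another row within 5 edits, and the median distance to the nearest was 82 edits. Reads of Trav copies can thus be split between rows by the counting, and 11 groups of copies, 22 rows in all, held the same counts in every library, Trav6-6 and Trav6d-6 among them. Trav shares are uncertain between copies for that reason, and the Trav effective number and distance below were also computed on families (the number after Trav, copies together).

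Trbc1 and Trbc2 differ little in their coding sequence. Over 518 coding bases they differed at 23, and 22 of these lie in the last 148, which are shown with the differing bases in capitals (chromosome 6, plus strand).
Trbc1: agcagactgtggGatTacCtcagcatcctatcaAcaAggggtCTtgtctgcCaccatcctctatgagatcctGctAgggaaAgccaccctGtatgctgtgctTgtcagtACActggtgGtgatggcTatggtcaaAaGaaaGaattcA
Trbc2: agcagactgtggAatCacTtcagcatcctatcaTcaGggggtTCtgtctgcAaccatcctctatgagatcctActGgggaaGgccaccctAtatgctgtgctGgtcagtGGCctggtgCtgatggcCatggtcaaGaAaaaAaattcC
Reads from coding sequence that both share cannot be assigned to 1 of them, so the split between Trbc1 and Trbc2 below is uncertain.

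The 2 beta V segments that the results turn on most are Trbv13-2 (41121396 to 41121832), found in every library, and Trbv19 (41178375 to 41179048), with counts in the 5 WT-labelled libraries and 0 in the 3 KO-labelled ones. Their last 120 coding bases follow with those of Trav14d-3-dv8 (chromosome 14, 53078452 to 53079045), the most widely found alpha segment, which the delta chain can also use. Capitals mark the codon of the conserved cysteine at which the third hypervariable loop of the receptor begins.
Trbv13-2: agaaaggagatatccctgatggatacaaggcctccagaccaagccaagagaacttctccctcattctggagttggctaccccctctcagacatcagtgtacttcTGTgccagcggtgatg
Trbv19: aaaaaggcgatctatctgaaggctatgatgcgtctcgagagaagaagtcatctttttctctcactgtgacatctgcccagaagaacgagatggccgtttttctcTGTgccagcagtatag
Trav14d-3-dv8: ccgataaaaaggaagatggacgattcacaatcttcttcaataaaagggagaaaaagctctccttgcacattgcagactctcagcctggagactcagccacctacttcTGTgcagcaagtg

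Joining segments are shorter, and few reads were assigned to them. Traj rows are 29 to 72 bases long and held 4 to 28 counts per library, Trbj rows are 46 to 53 bases long and held 0 to 11, and both Trbd rows had 0 counts in all 8 libraries. Traj18 and Traj27 had the highest mean shares of Traj counts, and Trbj2-5 and Trbj1-2 of Trbj counts. Traj18, Traj27 and Trbj1-2 are printed whole with the J motif TTTGGNNNNGG or TTCGGNNNNGG in capitals, searched on the coding strand. Of all segments, 43 of 60 Traj (71.7%) and 11 of 14 Trbj (78.6%) hold it.
Traj18: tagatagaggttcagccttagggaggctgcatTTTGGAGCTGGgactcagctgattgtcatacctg
Traj27: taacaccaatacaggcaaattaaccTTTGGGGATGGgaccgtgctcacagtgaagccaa
Trbj1-2: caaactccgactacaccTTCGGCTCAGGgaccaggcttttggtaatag
Traj18 (chromosome 14, 54200777 to 54200842), the alpha J segment of invariant NKT cells, had 14, 17, 1, 1 and 1 counts in WT-labelled replicates 1 to 5 and 1, 3 and 2 in KO-labelled replicates 1 to 3. Its partner segment Trav11 (53519303 to 53519859) had 198 counts in WT-labelled replicate 4 and 0 in the other 7 libraries, and its copy Trav11d had 0 in all. The library with Trav11 counts was thus not one of the 2 with more than 3 Traj18 counts. Traj27 had 2, 1, 5, 3 and 2 counts across WT-labelled replicates 1 to 5 and 0, 1 and 0 across KO-labelled replicates 1 to 3. Trbj1-2 had at most 2 counts in any library and Trbj2-5 at most 1. Of the pair used by MAIT cells, Trav1 had 93 counts in WT-labelled replicate 2, 1 in replicate 5 and 0 elsewhere, and Traj33 had 1 count in each of WT-labelled replicates 1 and 4. Every J value is thus too low for a statement on usage, and no J segment entered the test across genes.

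As a share of all counts, the alpha and beta rows together were highest in WT-labelled replicate 4 and lowest in KO-labelled replicate 3. The share was 0.256, 0.164, 0.320, 0.71 and 0.438% in WT-labelled replicates 1 to 5 and 0.238, 0.143 and 0.0917% in KO-labelled replicates 1 to 3. Exact Clopper-Pearson 95% intervals, which cover counting error only, were 0.706 to 0.714% for the highest and 0.0889 to 0.0946% for the lowest. The groups overlapped, since WT-labelled replicate 2 lay below KO-labelled replicate 1. The means were 0.378 ± 0.211% (SD, n = 5) and 0.158 ± 0.0745% (n = 3), a difference of −0.22 percentage points with p = 0.107 in an exact two-sided permutation test over all 56 ways to choose 3 of 8 libraries. Adjusted over the 9 library measures tested here (Benjamini-Hochberg), p was 0.354, and the smallest raw p the design allows is 0.0179. Without WT-labelled replicate 4 the difference was −0.137 points, without replicates 4 and 5 it was −0.0889 points, and without the FY libraries −0.310 points (p = 0.2 and 0.1, exact permutation tests; a two-sided test of 3 against 3 cannot go below 0.1).

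**Figure D1:**
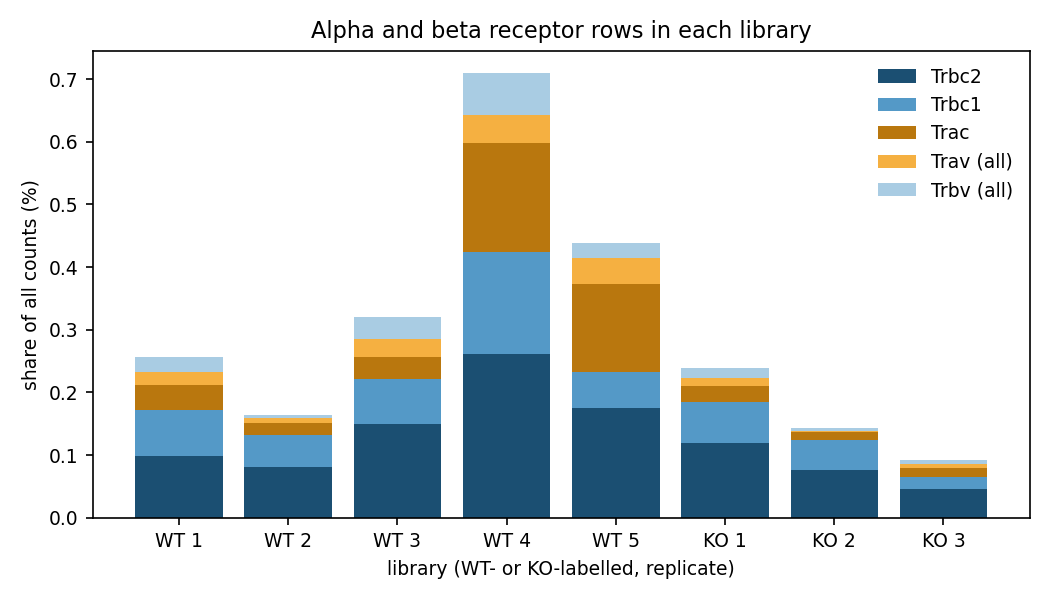
Share of all counts (%) held by Trbc2, Trbc1, Trac and all Trav and Trbv rows, stacked, in each WT-labelled and KO-labelled library. The bars run from 0.0917% in KO-labelled replicate 3 to 0.71% in WT-labelled replicate 4, and most of each bar is constant genes.

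Most of these counts came from the constant genes. Trac, the alpha constant gene (ENSMUSG00000076928), had 4088, 1992, 3876, 31133 and 14825 counts in WT-labelled replicates 1 to 5 and 2174, 612 and 642 in KO-labelled replicates 1 to 3. WT-labelled replicates 4 and 5 were far above the rest, and WT-labelled replicate 2 lay below KO-labelled replicate 1. After TMM scaling (normalised CPM), the WT-labelled mean of Trac was 1456 ± 1807 and the KO-labelled mean 132 ± 51.5. The log2 change of Trac, KO minus WT, was −3.46 (SE 1.18). This did not pass in the quasi-likelihood test of edgeR, adjusted over 14755 genes (adjusted p = 0.325), and passed in DESeq2 (adjusted p = 0.00488). Without WT-labelled replicates 4 and 5 the edgeR log2 change was −1.07, and without the FY libraries −3.89.

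The beta constant genes ran partly in the same order of libraries. Trbc2 had 10441, 8678, 16726, 47092 and 18527 counts across WT-labelled replicates 1 to 5 and 10078, 3479 and 1969 across KO-labelled replicates 1 to 3. Trbc1 had 7834, 5474, 8100, 29202 and 6002 counts across WT-labelled replicates 1 to 5 and 5562, 2159 and 814 across KO-labelled replicates 1 to 3. Both were highest in WT-labelled replicate 4 and lowest in KO-labelled replicate 3. In normalised CPM the WT-labelled mean of Trbc2 was 2445 ± 2442 and the KO-labelled mean 585 ± 270.4 (log2 change −2.06, SE 0.82; adjusted p = 0.325 by edgeR, 0.0283 by DESeq2). For Trbc1 these means were 1349 ± 1544 and 318 ± 170.4 (log2 change −2.08, SE 0.87; adjusted p = 0.328 by edgeR, none given by DESeq2). Leaving out WT-labelled replicates 4 and 5 gave log2 changes of −0.78 for Trbc2 and −0.91 for Trbc1, and without the FY libraries −2.29 and −2.26. Without WT-labelled replicate 4 alone they were −1.26 and −1.05, and that of Trac was −2.46. Trbc2 held 57.1 to 75.5% of the Trbc counts among WT-labelled and 61.7 to 70.7% among KO-labelled libraries, and the group means, 64.6 ± 7.11% and 65.6 ± 4.63%, differed by 1.01 points (p = 0.804, exact permutation test, two-sided).

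The balance of alpha and beta chains overlapped between the groups. Trav, Traj and Trac together held 23.3, 16.8, 19.6, 30.8 and 41.7% of the segment counts in WT-labelled replicates 1 to 5 and 15.95, 11.03 and 23.2% in KO-labelled replicates 1 to 3. WT-labelled replicates 4 and 5 were the highest, and the other 3 overlapped with the KO-labelled libraries. The difference of means was −9.70 points (p = 0.179, exact permutation test; adjusted p = 0.354), and −3.15 points without WT-labelled replicates 4 and 5 (p = 0.4, exact permutation test), or −5.88 without replicate 5 alone. Per kilobase of the deposited gene lengths (413 bases for Trac, 737 for Trbc1 and 692 for Trbc2), the Trbc level over the Trac level was 2.60, 4.14, 3.75, 1.43 and 0.973 across WT-labelled replicates 1 to 5 and 4.20, 5.37 and 2.54 across KO-labelled replicates 1 to 3. WT-labelled replicate 5 was the 1 library in which Trac stood above the Trbc genes per length.

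Set against CD3, the constant genes overlapped between the groups. The CD3 chains, encoded by Cd3d, Cd3e and Cd3g, carry the receptor's signal and are needed to bring it to the cell surface. Counts of Trac, Trbc1 and Trbc2 over those of the CD3 genes were 1.41, 0.751, 2.09, 1.31 and 1.30 in WT-labelled replicates 1 to 5 and 1.43, 1.40 and 0.919 in KO-labelled replicates 1 to 3. Both the lowest and the highest ratio were in WT-labelled libraries, replicates 2 and 3. With this denominator, chosen after seeing the data, the constant genes stood 12.7 counts per 100 CD3 counts lower in the KO-labelled group (p = 0.768, exact permutation test), and all segments 26.4 lower (p = 0.554). The means of the CD3 genes themselves were lower in the KO-labelled libraries on the normalised CPM scale, which did not pass by edgeR and passed by DESeq2. Cd3d had 1632 ± 1669 and 443 ± 48.2, Cd3e 448 ± 537 and 86.6 ± 43.2, and Cd3g 1925 ± 2186 and 279.96 ± 158, with log2 changes of −1.88, −2.37 and −2.78 and edgeR adjusted p of 0.325, 0.329 and 0.325. The DESeq2 adjusted p of these genes were 0.033, 0.0242 and 0.0124, and in each the highest level was in WT-labelled replicate 4, with 4573, 1386 and 5518 normalised CPM.

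Variable segments showed a patchy pattern in which few were found in many libraries. Of the 130 Trav rows, 54 had under 10 counts in every library, 36 reached 10 counts in 1 library, 22 in 2 libraries and 12 in at least 4. Of the 35 Trbv rows, 12 had under 10 in every library and 13 reached 10 counts in at least 4. Trbv13-2 was the 1 V segment with at least 10 counts in all 8 libraries, and Trav14d-3-dv8 came next with 7.

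**Figure D2:**
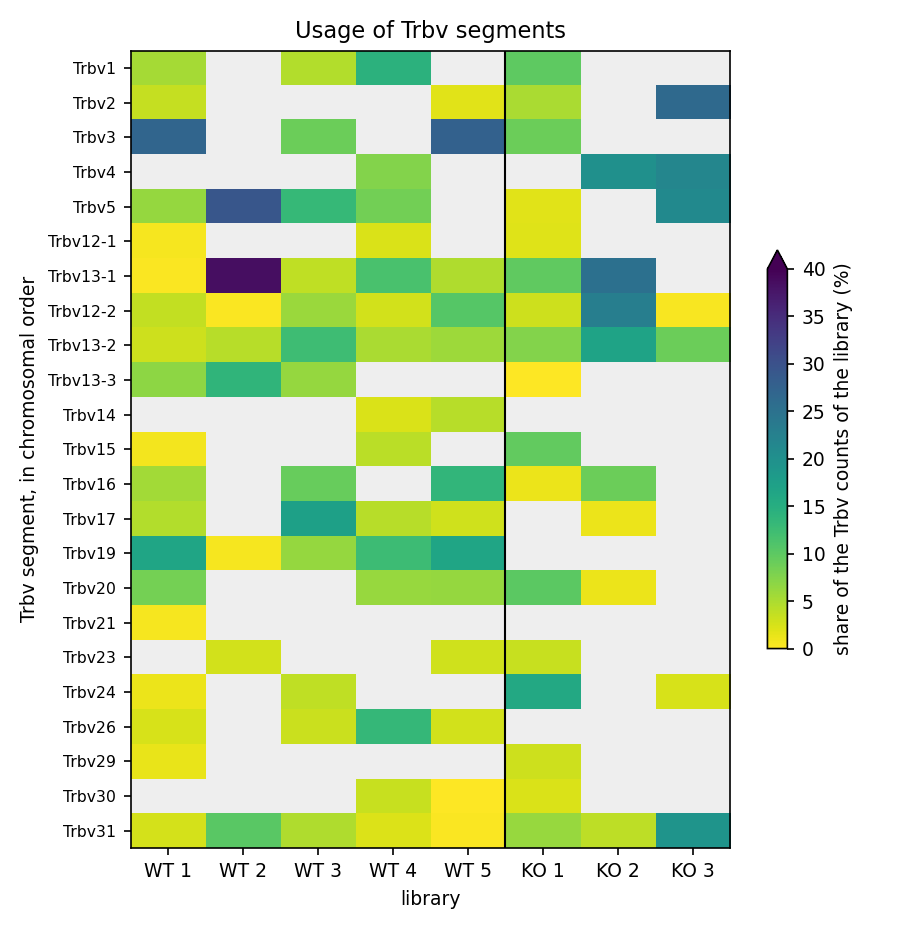
Usage of the 23 Trbv segments with at least 10 counts in some library, as a share of the Trbv counts of each library (%, colour), in chromosomal order; grey is a count of 0. Only the row of Trbv13-2 has at least 10 counts in every library, and the row of Trbv19 is grey in the 3 KO-labelled libraries.

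The V counts behind these shares differ widely between libraries. Trbv rows summed to 2535, 369, 3939, 12012 and 2393 counts in WT-labelled replicates 1 to 5 and to 1347, 179 and 254 in KO-labelled replicates 1 to 3. Trav rows summed to 2200, 914, 3115, 8147 and 4433 across WT-labelled replicates 1 to 5 and to 1041, 103 and 273 across KO-labelled replicates 1 to 3. A Trbv count of 0 thus allows a share of up to 0.025% in WT-labelled replicate 4 but 1.68% in KO-labelled replicate 2, and a Trav count of 0 up to 0.0368% and 2.91% (3 counts of the total). V rows held 17.5, 7.35, 19.7, 15.8 and 14.8% of the segment counts among WT-labelled and 11.8, 4.31 and 13.3% among KO-labelled libraries, a difference of −5.20 points (p = 0.196, exact permutation test; adjusted p = 0.354). It was −2.45 points without KO-labelled replicate 2, and −7.12 points without WT-labelled replicate 2 (p = 0.0286, exact permutation test, the smallest possible; adjusted p = 0.129).

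Among beta V segments, usage below is a segment's share of the Trbv counts of its library. Trbv13-1 had the highest mean usage over the 8 libraries, with 0.237, 38.5, 3.76, 11.6 and 4.76% among WT-labelled and 9.77, 25.2 and 0% among KO-labelled libraries. It led WT-labelled replicate 2 and KO-labelled replicate 2. Trbv5 usage was 6.40, 29.3, 13.3, 8.57 and 0% in WT-labelled replicates 1 to 5 and 1.83, 0 and 20.996% in KO-labelled replicates 1 to 3, so each group held a library at 0. Trbv3 was at 26.9, 0, 8.96, 0 and 27.5% and at 8.99, 0 and 0%, leading WT-labelled replicates 1 and 5.

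Trbv13-2, found in all 8 libraries, held 3.12, 4.34, 12.4, 5.10 and 5.85% in WT-labelled replicates 1 to 5 and 7.46, 16.8 and 9.04% in KO-labelled replicates 1 to 3. The highest share was in KO-labelled replicate 2, on 30 counts. As a level, Trbv13-2 averaged 30.9 ± 34.4 normalised CPM among WT-labelled and 5.78 ± 2.57 among KO-labelled ones (log2 change −2.41, SE 1.42, adjusted p = 0.405 by edgeR). This log2 change was −1.56 without WT-labelled replicate 4 and −1.51 without replicates 4 and 5, and −0.23 with the replicate number as a block. Its mean share was the higher one in KO-labelled libraries, 11.1 ± 4.99% against 6.16 ± 3.62%, with overlapping values and no test of its own. Trbv12-2 stood between 0.271 and 10.6% in WT-labelled libraries and at 2.97, 22.9 and 0.393% in KO-labelled replicates 1 to 3.

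Trbv19 was found in all 5 WT-labelled and no KO-labelled library. Its counts were 417, 2, 249, 1504 and 393 in WT-labelled replicates 1 to 5 and 0, 0 and 0 in KO-labelled replicates 1 to 3. As usage these are 16.4, 0.542, 6.32, 12.5 and 16.4%, while a count of 0 allows up to 0.223, 1.68 and 1.18% in KO-labelled replicates 1 to 3. WT-labelled replicate 2, at 0.542%, lies within what the limits of KO-labelled replicates 2 and 3 allow. Trbv19 passed the filter on low counts through WT-labelled libraries alone, so its change could be fitted in 1 direction only, and neither a fold nor a p is given as support. Its sequence was chosen for printing with these counts in view.

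The other beta segments that led a library had 0 counts in 3 or 4 libraries. Trbv1 led WT-labelled replicate 4 with 14.3% and stood at 5.36 and 4.62% in replicates 1 and 3 and at 9.95% in KO-labelled replicate 1, with 0 counts in the other 4 libraries. Trbv17 led WT-labelled replicate 3 with 17.2% and had 2 counts in KO-labelled replicate 2 and 0 in replicates 1 and 3. It too passed the filter through WT-labelled libraries alone, and no p is given. Trbv2 led KO-labelled replicate 3 with 26.3% and had 0 counts in WT-labelled replicates 2, 3 and 4 (log2 change 1.16, SE 2.11, adjusted p = 0.772). Trbv24, which GENCODE M21 classes as a V pseudogene, led KO-labelled replicate 1 with 15.9% on 214 counts and stood at 1.18 and 3.86% in WT-labelled replicates 1 and 3. Pseudogene rows held 16.04% of the Trbv counts of KO-labelled replicate 1, against 0 to 3.91% in the other 7 libraries. Trbv31, Trbv4 and Trbv26 were picked after their values were seen. Trbv31 reached 19.3% in KO-labelled replicate 3. Trbv4 had 888.9 counts in WT-labelled replicate 4, 35.7 and 54.9 in KO-labelled replicates 2 and 3, and 0 elsewhere. Trbv26 had 1599 counts in WT-labelled replicate 4, 62 to 129 in 3 other WT-labelled libraries and 0 in the KO-labelled ones.

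Alpha V usage was dominated by different segments in different libraries. Trav6n-6 had the highest mean usage, which rests on KO-labelled replicate 2: it held 1.95, 0, 5.24, 0.868 and 0.862% of the Trav counts in WT-labelled replicates 1 to 5 and 0.192, 55.3 and 0% in KO-labelled replicates 1 to 3. The 55.3% came from 57 counts of 103, with an exact 95% interval of 45.2 to 65.1%. Trav16 held 39.0% (37.3 to 40.7%) in WT-labelled replicate 3 on 1214 counts, and 0.0253 and 1.31% in replicates 4 and 5, with 0 counts in the other 5 libraries. Its copy Trav16n held 14.3, 17.9 and 14.1% in WT-labelled replicates 2 and 5 and KO-labelled replicate 1, and 0 in WT-labelled replicate 3.

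Trav14d-3-dv8 was the most widely found alpha segment, with 1.01, 10.53, 5.47, 7.27 and 5.03% in WT-labelled replicates 1 to 5 and 1.83, 4.85 and 5.49% in KO-labelled replicates 1 to 3. The KO-labelled shares lay inside the range of the WT-labelled ones. As a level it averaged 27.7 ± 32.8 normalised CPM among WT-labelled and 1.70 ± 0.969 among KO-labelled ones (log2 change −4.02, SE 1.54, adjusted p = 0.325 by edgeR and 0.00447 by DESeq2). Without WT-labelled replicates 4 and 5 this log2 change was −2.26. Trav7-4 led WT-labelled replicate 4 with 13.7% and KO-labelled replicate 1 with 18.6%, and was at 8.0% in WT-labelled replicate 1 and under 1% elsewhere. Trav14n-3 stood at 3.15 to 11.3% in 4 WT-labelled libraries and at 4.48% in KO-labelled replicate 1, with 0 in the other 3. Trav14d-1 led WT-labelled replicate 1 with 18.4%, and Trav7-2 led KO-labelled replicate 3 with 15.4% while standing at 10.1% in WT-labelled replicate 5 and at 0 in the other 6. Both have an identical copy over their last 250 coding bases. The copy of Trav7-2, Trav7d-2, had 118 and 162 counts in WT-labelled replicates 4 and 5, and that of Trav14d-1, Trav14n-1, had 409 and 395. The values of these rows can thus depend on how reads were split between copies.

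**Figure D3:**
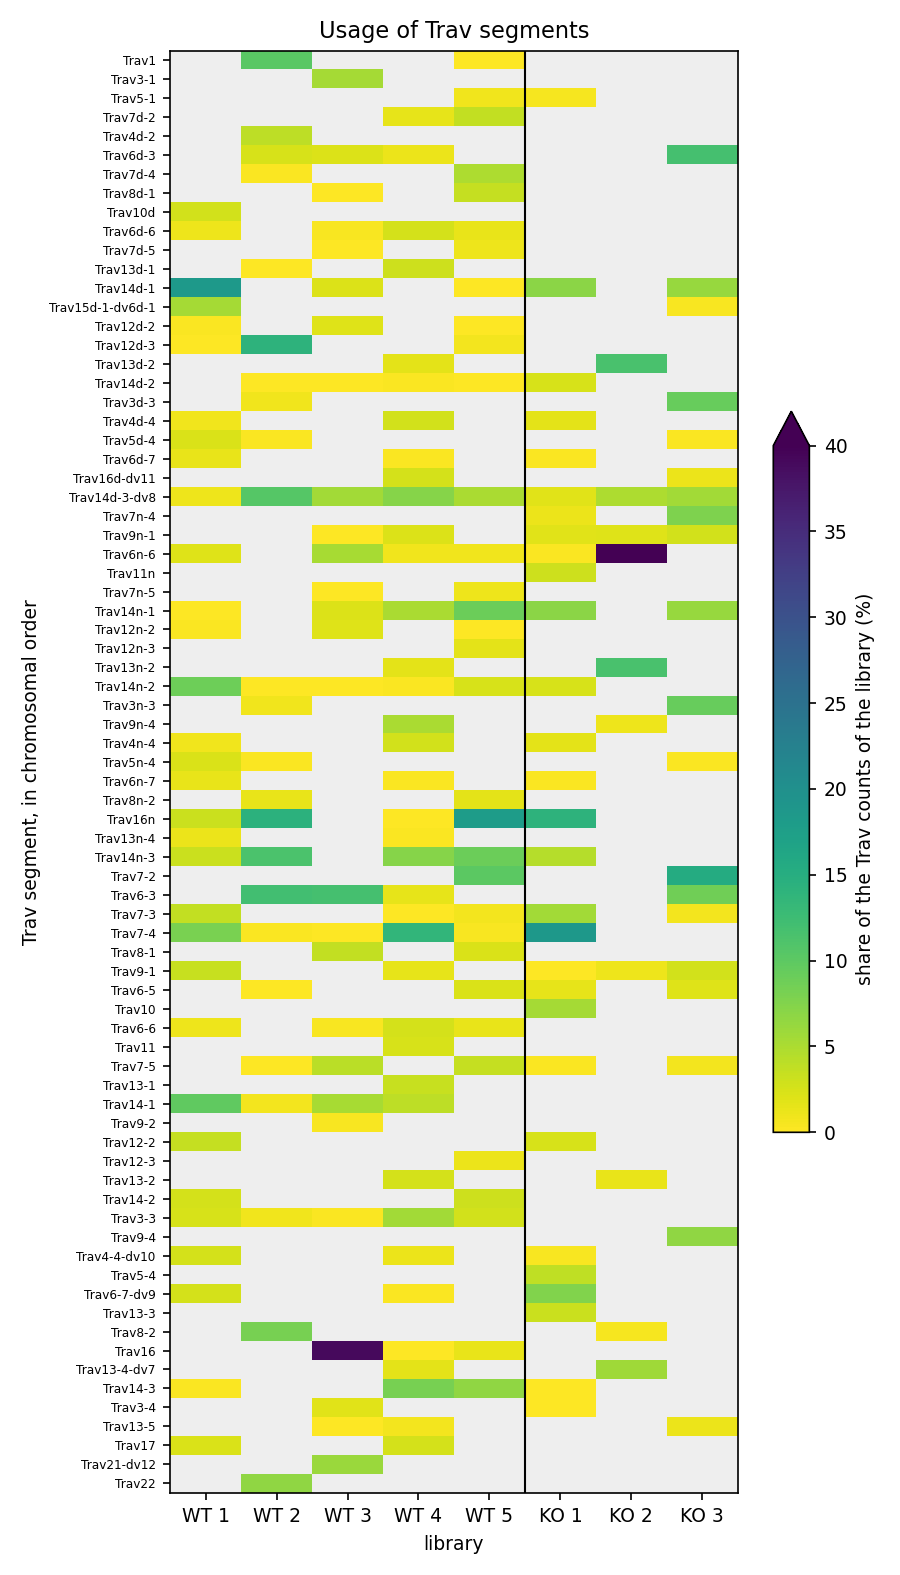
Usage of the 76 Trav segments with at least 10 counts in some library, as a share of the Trav counts of each library (%, colour), in chromosomal order; grey is a count of 0, and the colour scale is capped, with 1 cell, Trav6n-6 in KO-labelled replicate 2, above the cap. The darkest cells are Trav6n-6 in KO-labelled replicate 2 (55.3%) and Trav16 in WT-labelled replicate 3 (39.0%), and most rows are grey in most libraries.

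Summed over copies, the Trav14 family (9 rows) had the highest mean usage, with 44.1, 22.8, 15.1, 32.1 and 35.1% in WT-labelled replicates 1 to 5 and 25.2, 4.85 and 17.9% in KO-labelled replicates 1 to 3. The Trav6 family (15 rows) held 5.71 to 20.03% in WT-labelled libraries and 9.90, 59.2 and 23.4% in KO-labelled replicates 1 to 3. On the beta side the Trbv13 family (3 rows) held 10.2, 56.6, 22.4, 16.6 and 10.6% and 17.4, 42.0 and 9.04%. The WT-labelled range of the Trbv13 family held all KO-labelled shares but that of replicate 3. Along the alpha locus, the middle block of Trav rows (43 of 130, from 53047287 to 53454784) held 40.5 ± 14.1% of Trav counts among WT-labelled and 60.3 ± 17.4% among KO-labelled libraries, a description without a test, since copies in different blocks share reads. Pseudogene rows held 18.9% of the Trav counts of WT-labelled replicate 2, mostly from Trav8-2, Trav22 and Trav4d-2, and 0 to 7.95% in the other libraries.

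The spread of usage was summarised as an effective number, the number of equally used segments that would give the same Shannon entropy. For Trav it was 20.2, 11.6, 9.54, 23.8 and 18.5 in WT-labelled replicates 1 to 5 and 16.7, 4.87 and 13.9 in KO-labelled replicates 1 to 3. WT-labelled replicate 4 was highest and KO-labelled replicate 2, the library with the fewest Trav counts, lowest. The means, 16.7 ± 5.98 and 11.8 ± 6.19, differed by −4.88 (p = 0.339, exact permutation test, two-sided; adjusted p = 0.505), by −1.94 without WT-labelled replicates 4 and 5, by −1.39 without KO-labelled replicate 2, by −7.32 without KO-labelled replicate 1 and by −3.11 without WT-labelled replicate 4. On families the difference was −1.38 (p = 0.304, exact permutation test). For Trbv it was 11.1, 4.61, 11.4, 12.4 and 8.82 across WT-labelled replicates 1 to 5 and 13.1, 5.75 and 5.23 across KO-labelled replicates 1 to 3, a difference of −1.64 (p = 0.518; adjusted p = 0.583, exact permutation test). This became −4.18 without KO-labelled replicate 1, −0.497 without replicate 2 and −0.237 without replicate 3, and −2.90 and −0.965 without WT-labelled replicates 2 and 4 in turn. Both the lowest and the second highest Trbv value were in WT-labelled libraries, and the highest was KO-labelled replicate 1.

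**Figure D4:**
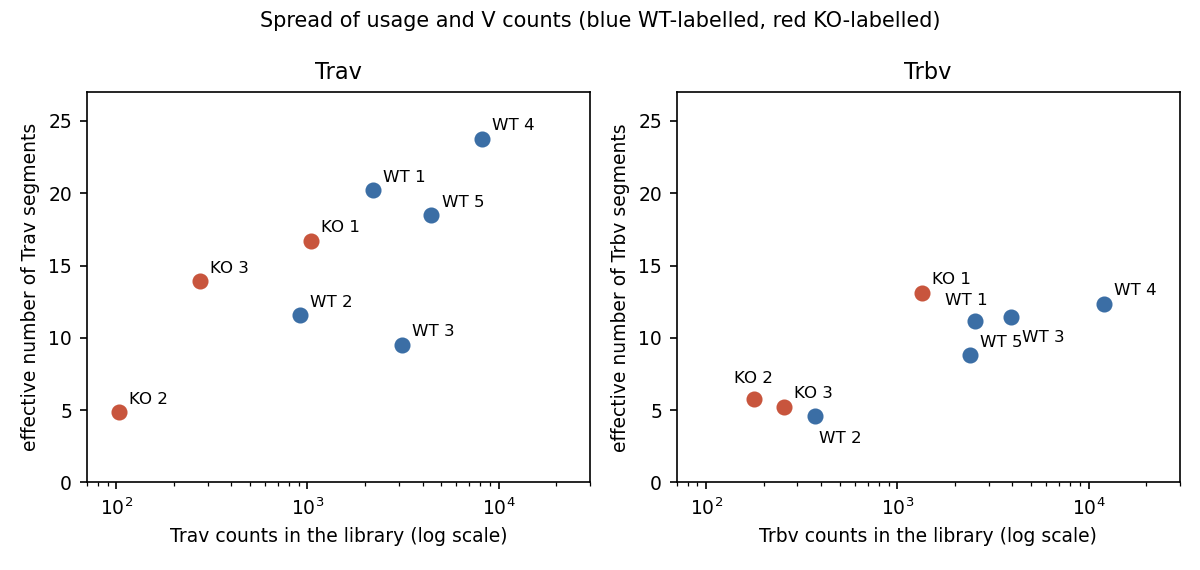
Effective number of Trav (left) and Trbv (right) segments against the Trav or Trbv counts of each library (log scale); blue points are WT-labelled and red points KO-labelled libraries. The libraries with under 400 Trbv counts (WT-labelled replicate 2 and KO-labelled replicates 2 and 3) lie between 4.61 and 5.75, and the others between 8.82 and 13.1.

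Because V counts differed widely, the libraries were also compared at equal depth. At 103 Trav counts, the depth of KO-labelled replicate 2, the expected number of Trav segments detected was 25.3, 14.6, 15.9, 26.99 and 23.3 in WT-labelled replicates 1 to 5 and 21.6, 11 and 17.1 in KO-labelled replicates 1 to 3. At 179 Trbv counts it was 17.0, 7.70, 13.1, 14.9 and 12.4 and 16.3, 8 and 6.70. WT-labelled replicate 2 and KO-labelled replicates 2 and 3 stayed the lowest for Trbv at equal depth. The differences of means were −4.65 (p = 0.268) and −2.69 (p = 0.393, exact permutation tests), with both groups overlapping.

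V usage differed widely between libraries of 1 group. Over the 28 pairs of libraries, the Bray-Curtis distance of Trav usage (0 for the same shares, 1 for no segment in common) ran from 0.632 to 0.961. Its mean was 0.822 between groups (15 pairs) and 0.814 within them (13 pairs), with p = 0.393 in a one-sided exact permutation test. On families the excess between groups was 0.0454 (p = 0.232, one-sided exact permutation test), against 0.0074 on single rows. For Trbv it ran from 0.304, between WT-labelled replicates 1 and 5, to 0.918, between WT-labelled replicate 5 and KO-labelled replicate 3. The Trbv means were 0.698 between and 0.635 within groups (p = 0.107, one-sided exact permutation test; adjusted p = 0.354). Single libraries moved this excess of 0.063, to 5.7e-05 without WT-labelled replicate 1, 0.0264 without replicate 5, 0.125 without replicate 2 (p = 0.0286, the smallest that exact permutation allows there; adjusted p = 0.129), 0.121 without KO-labelled replicate 1 and 0.0414 without KO-labelled replicate 3. Without WT-labelled replicates 4 and 5 it was 0.0128. Within the KO-labelled group the 3 pairs averaged 0.889 for Trav and 0.723 for Trbv, and within the WT-labelled group the 10 pairs averaged 0.792 and 0.608. KO-labelled replicates 1 and 2 shared 0 Trav segments with at least 10 counts.

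**Figure D5:**
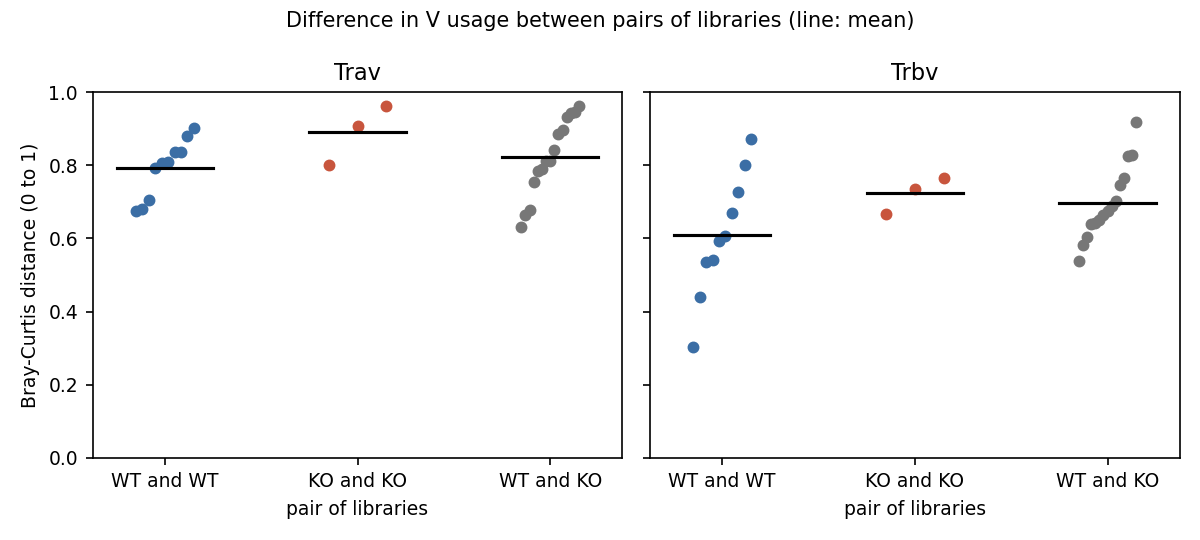
Bray-Curtis distance of Trav (left) and Trbv (right) usage for each pair of libraries, grouped as 10 pairs of WT-labelled, 3 pairs of KO-labelled and 15 mixed pairs; lines are means. For Trav the mixed pairs run from 0.632 to 0.961 and the pairs of 1 group from 0.676 to 0.961, and for Trbv from 0.539 to 0.918 and from 0.304 to 0.872.

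In the test across all genes, 42 of the 244 segments passed the filter on low counts: Trac, both Trbc genes, 21 Trav and 18 Trbv rows. By edgeR 0 of the 42 passed at an adjusted p under 0.05, against 0% of all 14755 genes tested, and 12 had an unadjusted p under 0.05, each lower in the KO-labelled group, against 6.43% of all genes lower at that level and 7.96% higher. DESeq2 called 10 lower and 0 higher, against 10.0% and 6.4% of all genes, and gave no adjusted p for 14. A log2 change below 0 was fitted for 39 of the 42, against 56.8% of all genes, with a median of −2.99 against −0.42. With the size factors of DESeq2 in edgeR these medians were −3.60 and −0.72. A row that passed the filter only through libraries of 1 group had to differ, and 6 of the 42 had 0 counts in all KO-labelled libraries. Of the 39 V rows tested, 33 had a 0 in at least 1 KO-labelled library and 30 in at least 1 WT-labelled one. Those 33 could not pass through KO-labelled libraries alone. The 10 DESeq2 calls include Trbv17, Trbv19, and the copies Trav6-6 and Trav6d-6, which hold the same counts and were at 0 in all KO-labelled libraries. All these counts are therefore a description. All KO-labelled libraries lay below all WT-labelled ones for 2 of the 42 rows, Trbv19 and Trav3-3, against 4.49% of all genes, and above them for 0, against 13.2%. Without WT-labelled replicates 4 and 5, 22 segments passed the filter, 19 with log2 changes below 0, a median of −1.15 against −0.15 over all genes, and 1 row with an unadjusted p under 0.05.

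Segments found in 1 group only were mostly WT-labelled ones, where V counts are higher. Of the Trav rows, 30 had at least 10 counts in a WT-labelled library and 0 in all KO-labelled ones, and 6 the reverse. For Trbv these numbers were 4 and 0. Of the 29 Trav and 17 Trbv rows with at least 10 counts in a KO-labelled library, 21 (72.4%) and 17 (100%) also reached 10 in a WT-labelled one; of the 68 Trav and 23 Trbv rows reaching 10 in a WT-labelled library, 30.9% and 73.9% did so in a KO-labelled one. The same counts over all rows of the table were not made, so those given here describe the segments alone and are not read as particular to them. The groups also differ in the number of libraries (5 and 3), and every WT-labelled total was above every KO-labelled one. The part of depth in the difference between the groups was not tested beyond the comparison at equal counts above.

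Genes that act with the receptor were counted by list. Of 11 genes of the receptor complex and its first signalling steps, such as Lck and Lat, all 11 were tested and 0 were called in either direction by edgeR. Log2 changes below 0 were fitted for 11 of 11, against 56.8% of all genes, and 5 were lower at an unadjusted p under 0.05, against 6.43%, with a median of −1.70 against −0.42. DESeq2 called 4 lower (Cd3d, Cd3e, Cd3g and Lat, the last with an adjusted p of 0.00488). It called 10.0% of all genes lower, and gave no adjusted p for 2 of the 11. WT-labelled replicate 4 held the highest levels of Lck, Lat and Cd247, at 2182, 1607 and 1265 normalised CPM. Of the 8 transcription factors known to bind the receptor gene enhancers, such as Tcf7 and Ets1, all were tested and 0 were called by edgeR, with 8 log2 changes below 0, 2 of them at an unadjusted p under 0.05 (median −1.58). DESeq2 called 2 of the 8 factors lower, Tcf7 (adjusted p = 0.0148) and Lef1 (adjusted p = 0.00365), against 10.0% of all genes. Of the 4 genes of recombination and the pre-receptor (Rag1, Rag2, Dntt and Ptcra), 1, Ptcra, was tested and not called (log2 change 0.19), and Rag1 and Dntt had at most 3 counts in any library.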

How the data were processed

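Libraries were made with the SMART-Seq V4 kit from 10 ng of total RNA, per the labels' protocols; it does not mark strand. The values deposited by the authors are expected counts, one estimate per gene and library, not always whole. Per the submitters' processing notes, mm10, RSEM, StringTie, HISAT2, fastp and DESeq2 were used. Their versions and roles, and the annotation, are not given in the sources used here. The group signal columns deposited by the authors (2 group means) were not used, and the table held 0 columns of other samples. Gene length is another deposited column, in bases, named as such per the file headers.

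Counts were rounded for edgeR 4.0.16 in R 4.3.3 (filterByExpr, TMM, two-sided quasi-likelihood test, KO minus WT, 8 libraries, no covariates, Benjamini-Hochberg, threshold 0.05). Each standard error is the size of the log2 change divided by the root of F. DESeq2 1.42.0 was the alternative tool. The 9 library measures were tested by exact permutation over 56 label assignments (two-sided, one-sided for the distances, smallest p 0.0179) in Python 3.11.15; group sizes are 5 and 3. Procedures were checked on simulated data. No libraries of a group agreed within sampling noise (chi-square over degrees of freedom 66.8 or more). Library totals of 4314445 to 17977089 limit low segments, and a 0 is read as at most 3 counts (counting error only). Segments and lists were chosen with earlier results of these data known. Named were Trac, Trbc1, Trbc2, the 6 Trav, 6 Trbv, 2 Traj and 2 Trbj rows of highest mean usage, the leading V of each library, and the invariant NKT and MAIT segments. Alternatives were other scaling, no filter, families, per-length counts, other diversity and distance indices, equal depth, a replicate block, and leaving out libraries.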

Additional observations from a re-analysis of the deposited data

Results flagged for a closer look

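Among 26 results examined in the 5 WT-labelled libraries (7 library measures and 19 named segments), 8 had 1 library far from the other 4, where the rule flags about 1 in 20 groups by chance if values are normally distributed, which was not tested for these rows. All 8 are normalised CPM of single rows. WT-labelled replicate 4 was the far library for Trbv1 (240.5), Trbv13-1 (195), Trbv19 (211), Trav7-4 (156) and the constant gene Trbc1 (4102). WT-labelled replicate 5 was far above the others for Trav16n (110.5), replicate 1 for Trav14d-1 (33.6) and replicate 3 for the pseudogene Trbv24 (12.8). Reads of Trav14d-1 can be split with its copy Trav14n-1, which had 409 and 395 counts in WT-labelled replicates 4 and 5.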

How the results depend on the processing

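DESeq2 called 10 of 42 segments, all lower, against 10.0% of all genes called lower. edgeR called 0, and the other settings called 0. None of the 9 library measures passed the adjusted threshold in any setting. The excess of Trav distance between groups, 0.00740, was −0.0253 without WT-labelled replicates 4 and 5 and −0.0126 without WT-labelled replicates 2 and 3 (the FY pair), and ran from −0.0186 to 0.061 with each library left out; the difference in Trbc2 share ran from −1.54 to 3.74 points. The cause was not tested. Leaving out 2 WT-labelled libraries leaves 3 against 3, where a two-sided p cannot go below 0.1. Log2 changes reversed for Trav7-4 without WT-labelled replicate 4 (0.33; range −11.29 to 0.33), Trav14d-1 without WT-labelled replicate 1 (1.09; range −2.46 to 1.09), and Trbv24 with a replicate block (−0.22) and without KO-labelled replicate 1 (−2.58; range −2.58 to 3.36). The labels do not say whether replicate numbers pair the samples. Correlations of deviations were 0.01, 0.02 and 0.05 for numbers 1 to 3. Each of WT-labelled replicates 1 to 3 correlated best with the KO-labelled library of its own number. In the other direction only KO-labelled replicate 3 did so. With correlations this low, the check cannot decide whether the samples were paired. With the replicate block edgeR called 0 segments, with 31 of 42 log2 changes below 0 and a median of −1.26 against 0.08 over all genes, and within replicates 1 to 3 the segment share differed by −0.0889 points (p = 0.25, exact sign permutation, the smallest possible).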

Other observations

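Genes of the gamma and delta receptor chains, which a separate T cell lineage uses, were high in different libraries. Trgc1 and Trgc2, gamma constant genes, had 1599 and 507 counts in WT-labelled replicate 5 and at most 2 elsewhere, and the segment Trgv4 225 counts there and at most 1 elsewhere. Trgc4 had 343 counts in WT-labelled replicate 1 and 0 in the other 7 libraries. The delta constant gene Trdc had 222, 450.01, 2.73, 23.5 and 0 counts in WT-labelled replicates 1 to 5 and 149, 7.58 and 14.2 in KO-labelled replicates 1 to 3. Trdc was thus at 0 in the library where the gamma genes were highest. The delta V segment Trdv2-2 had 133 and 620 counts in WT-labelled replicates 3 and 4, 91 in KO-labelled replicate 3 and 0 elsewhere. Immunoglobulin V rows summed to 6595 counts in WT-labelled replicate 4, against 5 to 138 in the other libraries.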
